A study of Homo sapiens with 132 samples.

Results

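The tensin family consists of 4 genes, TNS1, TNS2, TNS3 and TNS4, and their mRNA was followed through 4 gastric cancer cell lines treated with EGF or with drugs against the EGF receptor family. The members were found by gene symbol, as 4 of the 65217 Ensembl identifiers counted in every library. The family was chosen by measured values, since an earlier look at these data had shown TNS4 among the strongest falls in MKN7 cells after 4 h of afatinib, with TNS3 moving the opposite way. The comparisons of EGF, cetuximab, EGF + cetuximab, afatinib and trastuzumab + afatinib with untreated cells are therefore given as a description without a test. The tests below concern trastuzumab + afatinib against trastuzumab, EGF + cetuximab against EGF, trastuzumab against untreated, the time points of untreated cells, and differences between these effects.

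The series held RNA-seq libraries of 44 conditions with 3 replicates each. MKN1 and Hs746T cells were left untreated or received EGF (5 ng/ml, a ligand of the EGF receptor), EGF + cetuximab, cetuximab (1 µg/ml, an antibody against the EGF receptor), trastuzumab (5 µg/ml, an antibody against HER2), afatinib (0.5 µM, a kinase inhibitor of the HER family) or trastuzumab + afatinib. For MKN7 and NCI-N87 the conditions were untreated, trastuzumab, afatinib and trastuzumab + afatinib. Each treatment lasted 4 h or 24 h, the controls were untreated rather than solvent-treated, and all lines came from metastatic sites of gastric carcinomas. Hs746T was grown in DMEM and the other lines in RPMI, so a difference between Hs746T and another line cannot be told apart from the medium. In the study's own terms, MKN1 responded to cetuximab, NCI-N87 to trastuzumab, and MKN1, MKN7 and NCI-N87 to afatinib, while Hs746T responded to neither cetuximab nor afatinib.

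Tensins are cytoplasmic proteins of focal adhesions, the sites where integrins tie the actin cytoskeleton to the matrix. TNS1, TNS2 and TNS3 carry an N-terminal region that binds or contacts actin, and a C-terminal SH2 domain and phosphotyrosine-binding domain, the latter of which attaches to the cytoplasmic tail of beta integrins. TNS4, also called cten, keeps the C-terminal part and lacks the actin-binding region. In mammary epithelial cells EGF is known to lower TNS3 and raise TNS4, and TNS4 can then take the place of TNS3 at the integrin tail, which has been described as a tensin switch that goes with cell migration.

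The libraries held 25832557 to 69434151 counts, so that 3 counts corresponded to 0.116 CPM (counts scaled to a common library total) in the shallowest library and 0.0432 CPM in the deepest. Levels below are CPM after scaling by the trimmed mean of M-values (TMM) over all libraries, and a log2 fold change (log2FC) of 1 is a doubling. The labels do not say whether replicates were separate cultures, so p-values measure the spread between these samples, which may be technical. As in any bulk RNA measurement, fewer cells of a type and less RNA per cell cannot be told apart. The epithelial marker CDH1 (E-cadherin) was at 184 to 292 CPM in MKN7 and 197 to 344 CPM in NCI-N87, but at 0.747 to 6.04 CPM in MKN1 and 0.382 to 6.01 CPM in Hs746T. EPCAM went the same way, with medians of 25.1 CPM in MKN1, 35.5 in Hs746T, 626 in MKN7 and 496 in NCI-N87. The keratins did not, since the median of KRT8 was 11067 CPM in MKN1, 9663 in NCI-N87, 3083 in MKN7 and 342 in Hs746T. KRT18 and KRT19 were likewise lowest in Hs746T, with medians of 150 and 26.4 CPM, against 2984 and 4166 CPM in MKN1. VIM (vimentin), a mesenchymal marker, was at 1334 to 2047 CPM in Hs746T, 158 to 1218 CPM in MKN1, and at most 16.5 CPM in MKN7 and 15.4 CPM in NCI-N87. ZEB1 followed this order, with medians of 57.2, 34.9, 2.68 and 8.28 CPM, and CDH2 was above 1.31 CPM only in Hs746T. FN1 and SPARC did not, with medians of 624 and 143 CPM in MKN7 beside 677 and 1193 CPM in MKN1. The blood markers PTPRC and HBB reached at most 0.664 and 0.0733 CPM. Replicate 3 of MKN1 at 24 h and replicate 3 of MKN7 at 24 h stood apart from the other replicates in several tensin values. Some of the results that rest on them, but not all, are also given without them.

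On the genome build hg38, TNS1 (ENSG00000079308) lies on chr2:217799588-218033982 on the minus strand, TNS2 (ENSG00000111077) on chr12:53046969-53064372 on the plus strand, TNS3 (ENSG00000136205) on chr7:47275154-47582558 on the minus strand and TNS4 (ENSG00000131746) on chr17:40475828-40501597 on the minus strand. Their merged exons span 16281, 8093, 11797 and 4847 bases. Over all libraries TNS1 had 76 to 4164 counts, TNS2 66 to 1452, TNS3 4338 to 45443 and TNS4 13 to 35765, and none of the 4 genes was at 0 in any library. The TNS2 locus overlaps genes on the opposite strand, SPRYD3 with a summed count of 592% of that of TNS2 and AC068888.1 with 47.3%. Whether the counting used strand is not given in the sources used here, so the TNS2 values may include reads of these neighbours.

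To show the sequence around the starts of genes that moved together, the promoter windows were searched for AP-1 (TGANTCA), ETS (CCGGAA) and FOXO (GTAAACA) motifs on both strands. RefSeq windows on GRCh38.p14, from 250 bases before to 50 bases after the start, matched 3 of the 4 members, and the window farthest upstream is printed for each with ETS letters in capitals. The TNS1 window (chr2:218010226-218010525, minus strand) held 1 ETS motif. The TNS3 window (chr7:47582537-47582836, minus strand) held 1 ETS motif on the other strand, spelled TTCCGG as printed. The TNS2 window (chr12:53046741-53047040, plus strand) held none, and no window held an AP-1 or FOXO motif.
TNS1: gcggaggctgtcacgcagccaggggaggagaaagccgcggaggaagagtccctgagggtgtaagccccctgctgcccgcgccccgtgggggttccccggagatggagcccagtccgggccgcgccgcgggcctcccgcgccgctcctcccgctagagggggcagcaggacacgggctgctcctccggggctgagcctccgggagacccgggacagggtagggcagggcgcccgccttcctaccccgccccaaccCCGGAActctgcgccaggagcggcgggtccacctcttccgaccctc
TNS2: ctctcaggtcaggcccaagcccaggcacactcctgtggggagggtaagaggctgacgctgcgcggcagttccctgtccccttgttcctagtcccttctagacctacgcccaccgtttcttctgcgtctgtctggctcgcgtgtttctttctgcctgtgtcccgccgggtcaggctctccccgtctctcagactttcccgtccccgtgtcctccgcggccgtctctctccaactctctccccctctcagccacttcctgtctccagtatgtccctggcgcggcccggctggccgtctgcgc
TNS3: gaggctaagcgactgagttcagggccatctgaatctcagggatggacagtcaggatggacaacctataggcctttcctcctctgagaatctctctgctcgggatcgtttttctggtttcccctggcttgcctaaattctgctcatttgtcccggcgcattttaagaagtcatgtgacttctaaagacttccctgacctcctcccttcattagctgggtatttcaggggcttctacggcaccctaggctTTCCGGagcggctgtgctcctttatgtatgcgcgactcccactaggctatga
Among all 34796 windows, 17.2% held the ETS motif, 7.73% the AP-1 motif and 3.42% the FOXO motif, and a match is a description of the letters only. TNS4 had no entry in the window table.

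In untreated cells TNS4 was the most variable member between lines. At 4 h its 3 libraries read 343.1, 328.1 and 260.9 CPM in NCI-N87, 211, 224.5 and 292.2 CPM in MKN1, and 121.2, 80.46 and 97.62 CPM in MKN7. The ranges of NCI-N87 and MKN1 overlapped, and MKN7 lay below both. In Hs746T the untreated libraries held 0.6905, 1.266 and 0.3644 CPM at 4 h, and over all 42 Hs746T libraries TNS4 ranged from 0.297 to 2.04 CPM (median 0.526, 13 to 104 counts). TNS4 mRNA was thus detected at few counts in Hs746T and was abundant in the other lines. At 24 h untreated NCI-N87 cells held 380.1, 382.9 and 362.6 CPM and lay above MKN1 and MKN7, whose ranges overlapped.

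TNS3 was expressed in all 4 lines within a narrower range. At 4 h untreated MKN1 cells held 270.5, 203 and 216.1 CPM, overlapping NCI-N87 with 235, 185 and 223 CPM. MKN7 held 117.2, 144.2 and 122.1 CPM and overlapped Hs746T with 165, 155.8 and 135.2 CPM. At 24 h MKN1 lay highest with 478.2, 328 and 346.1 CPM, above NCI-N87 with 233.5, 239.5 and 232.8 CPM. MKN7 at 24 h spread from 141.6 to 253.3 CPM and overlapped both NCI-N87 and Hs746T, while NCI-N87 lay above Hs746T.

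TNS1 and TNS2 had far lower CPM than TNS3 in every line. For TNS1 at 4 h the untreated ranges of MKN1 (19.5 to 29.8 CPM), Hs746T (17.2 to 25.5 CPM) and NCI-N87 (13.2 to 19.7 CPM) overlapped from one to the next, and MKN7 lay below them all with 2.19 to 2.57 CPM. TNS2 was highest in Hs746T with 15.8 to 22.2 CPM at 4 h, followed without overlap by NCI-N87 (5.01 to 6.51 CPM), MKN1 (3.08 to 3.86 CPM) and MKN7 (1.77 to 2.01 CPM). At 24 h the TNS2 ranges of NCI-N87 (5.41 to 6.63 CPM) and MKN1 (4.68 to 6.80 CPM) overlapped, with Hs746T above and MKN7 below. MKN7 thus had the lowest TNS1 and TNS2 of the 4 lines at both times.

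**Figure D1:**
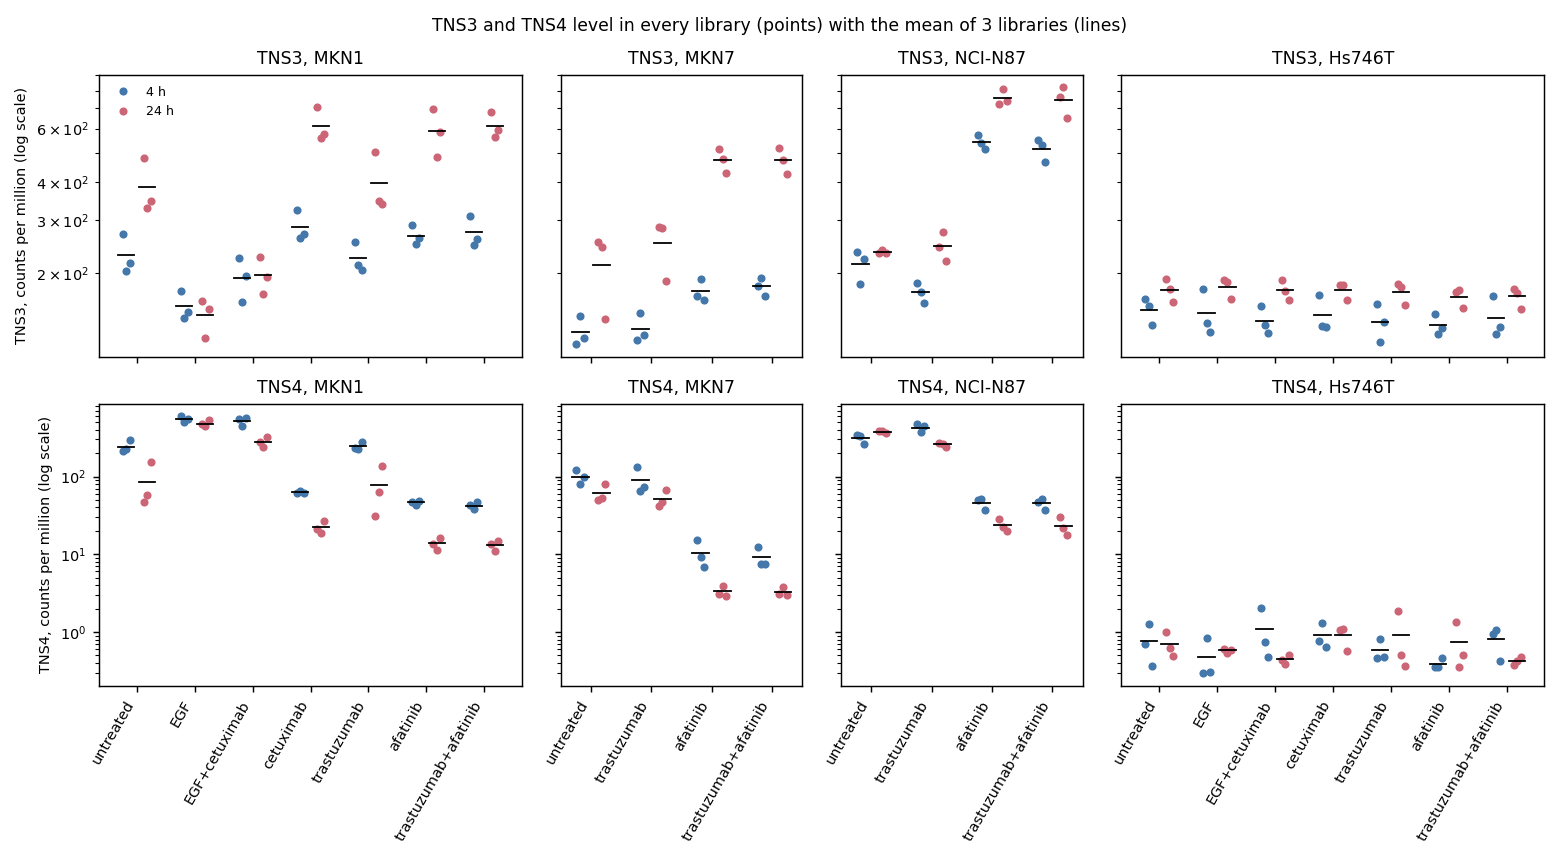
TNS3 and TNS4 level (CPM, log scale) in each library, by cell line, treatment and time, with points for single libraries and lines for the mean of 3. TNS4 lies at 0.297 to 2.04 CPM throughout Hs746T, whereas in MKN1, MKN7 and NCI-N87 it drops under afatinib as TNS3 lies higher.

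Per kilobase of exon the members can be set side by side. In untreated NCI-N87 cells TNS4 held 76.2% ± 3.66 (SD, n = 3) of the summed level of the 4 genes at 4 h and 78.0% ± 0.230 at 24 h. In MKN1 it held 69.7% ± 5.80 at 4 h and 31.7% ± 16.0 at 24 h, and in MKN7 64.3% ± 7.01 and 40.8% ± 14.2. Replicates 1 to 3 at 24 h read 17.8%, 27.9% and 49.2% in MKN1 and 31.6%, 33.6% and 57.1% in MKN7. The TNS4 level was 3.57 times that of TNS3 in NCI-N87 at 4 h, 2.63 times in MKN1 and 1.94 times in MKN7. In Hs746T the mean share of TNS4 per condition lay between 0.488% and 1.41%, single libraries running from 0.340% to 2.59%, and untreated cells at 4 h had 12.9 CPM per kilobase of TNS3, 2.42 of TNS2 and 1.39 of TNS1. TNS3 was therefore the leading tensin mRNA of Hs746T, and TNS4 that of the other lines at 4 h.

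Under afatinib TNS4 made up a smaller part of the sum in the 3 lines that express it, which is given as a description. In untreated cells at 24 h the mean ratio of TNS4 to TNS3 was 0.583 in MKN1, 0.789 in MKN7 and 3.88 in NCI-N87. In replicates 1 and 2 of MKN1 and MKN7 TNS3 already lay above TNS4. In replicate 3 TNS4 lay higher, with ratios of 1.08 in MKN1 and 1.37 in MKN7. After 24 h of afatinib TNS4 made up 4.97% ± 0.798 of the summed level in MKN1, 1.65% ± 0.264 in MKN7 and 6.77% ± 1.38 in NCI-N87. The ratio was then 0.0580, 0.0172 and 0.0766. The summed level of the 4 genes was 57.9 CPM per kilobase in MKN1 against 53.7 in untreated cells, 41.6 against 31.1 in MKN7 and 72.4 against 99.2 in NCI-N87. At 4 h the TNS4 share stood between these values and those of untreated cells, with 27.8% ± 1.21 in MKN1, 12.4% ± 4.68 in MKN7 and 16.5% ± 1.97 in NCI-N87. After EGF in MKN1 the share lay on the other side, at 88.2% at 4 h and 87.4% at 24 h.

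**Figure D2:**
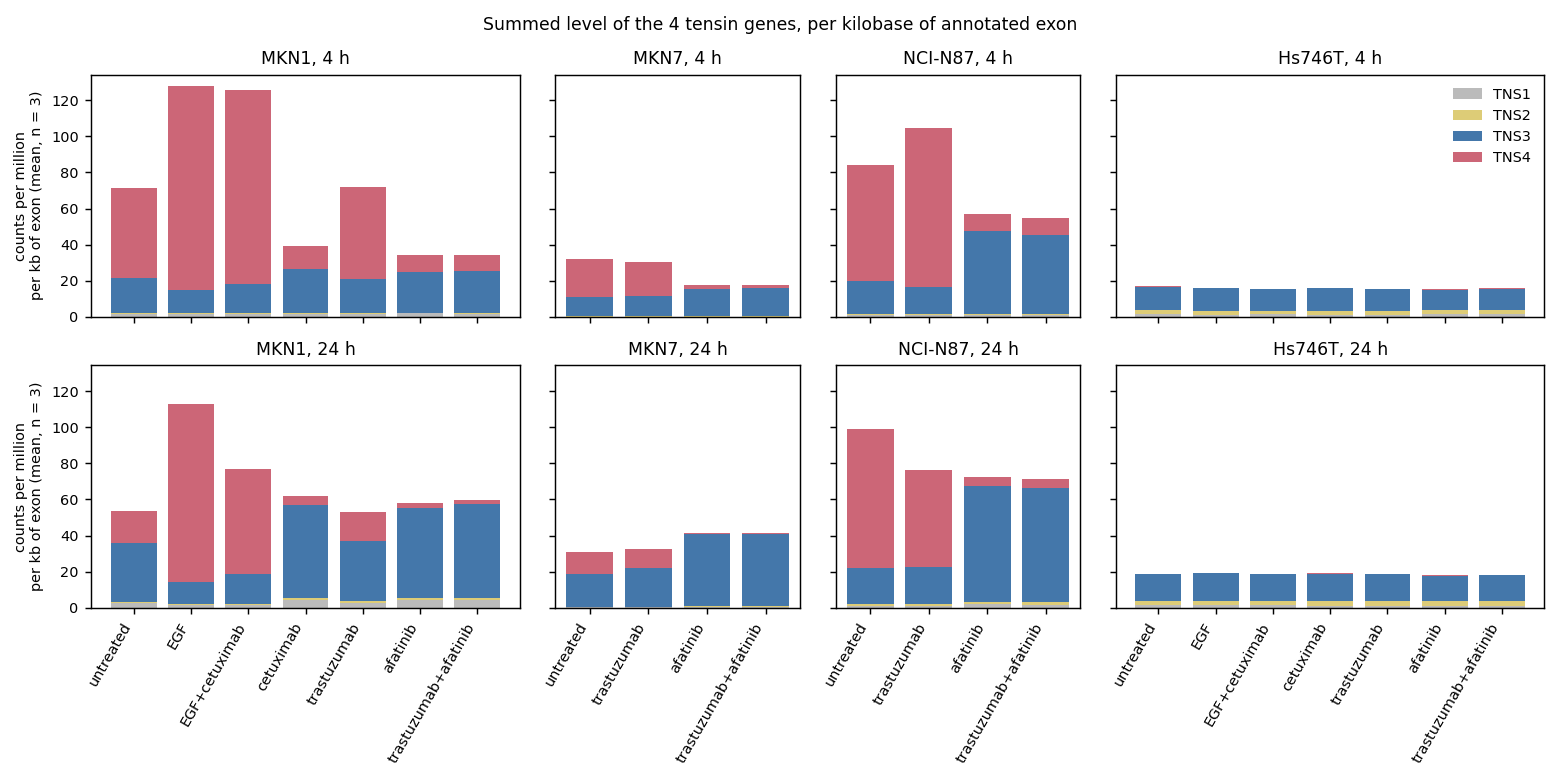
Mean level per kilobase of exon (CPM per kilobase, n = 3) of the 4 tensin genes as stacked bars for each cell line, treatment and time. The TNS4 part makes up 76.2% of the bar in untreated NCI-N87 cells at 4 h and 6.77% after 24 h of afatinib.

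TNS4 fell in MKN1, MKN7 and NCI-N87 when afatinib was added to trastuzumab, at both times. In MKN7 at 4 h the trastuzumab libraries held 133.4, 66.04 and 74.19 CPM and the trastuzumab + afatinib libraries 12.27, 7.594 and 7.437 CPM. The log2FC was -3.32 ± 0.33 (SE, edgeR adjusted p = 1.15e-06), a 10.0-fold lower level, where 20.5% of all genes tested in this comparison passed an adjusted p of 0.05 in either direction. At 24 h the values were 41.51, 46.41 and 66.10 CPM against 3.063, 3.745 and 3.027 CPM, with a log2FC of -3.98 ± 0.36 (adjusted p = 1.48e-07, 15.8-fold lower, background 44.2%). No library of the combination overlapped one of trastuzumab alone. TNS4 was the fall of rank 4 among 18483 genes at 4 h and of rank 5 at 24 h. Without replicate 3, which stood apart at 24 h, the log2FC at 24 h was -3.73.

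In NCI-N87 at 4 h TNS4 was at 468.7, 370.2 and 440 CPM under trastuzumab and at 47.40, 51.86 and 37.23 CPM under trastuzumab + afatinib. This is a log2FC of -3.23 ± 0.19 (adjusted p = 7.89e-11, 9.37-fold lower), with 19.6% of all genes called. At 24 h it was at 268, 265 and 241.7 CPM against 30.19, 21.95 and 17.50 CPM. The log2FC was -3.50 ± 0.19 (adjusted p = 1.92e-12, 11.3-fold lower), with 61.7% of all genes called. The groups were separated at both times, and the fall had rank 9 among 19078 genes at 4 h and rank 26 at 24 h.

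In MKN1 at 4 h TNS4 was at 232.4, 227.7 and 277.8 CPM under trastuzumab and at 42.45, 37.68 and 46.80 CPM under the combination. The log2FC was -2.55 ± 0.33 (adjusted p = 3.17e-06, 5.87-fold lower), where only 3.08% of all genes were called, and the fall had rank 6 among 19815 genes. At 24 h the trastuzumab libraries read 31.50, 63.03 and 137.5 CPM and the combination 13.42, 10.89 and 14.66 CPM. Replicate 3 under trastuzumab was high, but even the lowest trastuzumab library lay above every library of the combination. The log2FC at 24 h was -2.61 ± 0.34 (adjusted p = 9.39e-07, 6.10-fold lower, background 27.9%, rank 22), and -1.98 (adjusted p = 3.57e-05) without replicate 3. Replicate 3 was also high in SPRY4, a feedback inhibitor of receptor kinase signalling, with 44.8 CPM against 8.17 and 18.3 CPM under trastuzumab, and in DUSP6, an ERK phosphatase, with 38.9 CPM against 6.23 and 13.8 CPM. The part of this in the result was not tested.

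The libraries of afatinib alone lay in the same region as those of the combination. After 4 h of afatinib TNS4 was at 15.37, 9.331 and 6.894 CPM in MKN7, 49.43, 51.37 and 36.78 CPM in NCI-N87, and 47.53, 43.28 and 48.55 CPM in MKN1. Each of these lay below every untreated library of its line, with log2FC of -3.28 ± 0.33, -2.76 ± 0.18 and -2.40 ± 0.33 against untreated cells. At 24 h the afatinib libraries held 3.072, 3.961 and 2.925 CPM in MKN7, 28.72, 22.22 and 20.10 CPM in NCI-N87, and 13.72, 11.40 and 16.41 CPM in MKN1. The log2FC were -4.19 ± 0.36, -4.02 ± 0.20 and -2.66 ± 0.34, again without overlap. Untreated replicate 3 at 24 h lay high in MKN1, with 154 CPM against 46.79 and 57.52 CPM, and in MKN7, with 79.86 CPM against 49.35 and 52.35 CPM. Without replicate 3 the log2FC were -2.07 in MKN1 and -3.87 in MKN7. In the same untreated libraries SPRY4 was at 53.7 CPM against 17.5 and 19.9 CPM in MKN1, and at 17.4 CPM against 7.25 and 6.17 CPM in MKN7, and its part in the result was not tested.

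In Hs746T none of the 8 tensin tests of trastuzumab + afatinib against trastuzumab passed (0% of all 18667 genes called at 4 h and 0% at 24 h), none passed at an unadjusted p of 0.05, and DESeq2 also gave 0. TNS4 at 4 h was at 0.4665, 0.8076 and 0.4789 CPM against 0.9435, 1.047 and 0.4271 CPM. At 24 h it was at 1.843, 0.5053 and 0.3702 CPM against 0.3739, 0.4201 and 0.4814 CPM, a log2FC of -1.07 ± 0.56 with a 95% interval of -2.17 to 0.03. These libraries held few TNS4 counts. The smallest fall among the other lines at 24 h, that of MKN1 (-2.61), lies outside this interval, but the difference between MKN1 and Hs746T did not pass its own test (-1.52, adjusted p = 0.186).

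TNS3 moved the opposite way, most in NCI-N87. There it was at 185.6, 174.1 and 160 CPM under trastuzumab for 4 h and at 549.5, 528.7 and 466.7 CPM under trastuzumab + afatinib. The log2FC was 1.57 ± 0.11 (adjusted p = 9.54e-10, 2.97-fold higher), rank 266 among the rises. At 24 h the values were 243.7, 274.4 and 219.1 CPM against 762.6, 819.8 and 651.3 CPM, with a log2FC of 1.58 ± 0.11 (adjusted p = 5.84e-11, 2.98-fold higher). No library overlapped at either time. Under afatinib alone TNS3 was at 569.3, 539.2 and 512.6 CPM at 4 h and at 725, 807.3 and 737.1 CPM at 24 h, above every untreated library, with described log2FC of 1.34 ± 0.11 and 1.65 ± 0.11.

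In MKN7 the rise of TNS3 passed at 24 h. The trastuzumab libraries held 283.6, 282.2 and 188.2 CPM and the combination 516, 473.7 and 424.5 CPM. All libraries of the combination lay higher, with a log2FC of 0.89 ± 0.17 (adjusted p = 0.000257, 1.85-fold), and 0.77 without replicate 3. At 4 h the values were 121, 147.7 and 125.1 CPM against 182, 192.8 and 168.6 CPM. The log2FC of 0.47 ± 0.17 missed the threshold (adjusted p = 0.0552) although the groups did not overlap. With the replicate number as a block it was 0.47 and passed (adjusted p = 0.00105). Under afatinib alone the log2FC against untreated cells were 0.41 ± 0.17 at 4 h and 1.14 ± 0.17 at 24 h, with every afatinib library above every untreated one.

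In MKN1 TNS3 rose at 24 h, from 503.2, 345.7 and 339.3 CPM under trastuzumab to 681.3, 562.3 and 592.6 CPM under the combination. The log2FC was 0.60 ± 0.15 (adjusted p = 0.00351), and 0.53 without replicate 3, when it no longer passed (adjusted p = 0.176). At 4 h the libraries overlapped, with 253.7, 213.7 and 205.6 CPM against 309.5, 248.2 and 260.4 CPM. The log2FC at 4 h was 0.27 ± 0.15 (adjusted p = 0.505), and 0.27 with the replicate block (adjusted p = 0.00333), so the rise was called there only when replicates were compared within their number. Under afatinib alone the described log2FC were 0.20 ± 0.15 at 4 h, with overlap, and 0.60 ± 0.15 at 24 h, without. In Hs746T TNS3 stayed between 118 and 191 CPM in all 42 libraries (median 162). Its 95% intervals for trastuzumab + afatinib against trastuzumab ran from -0.17 to 0.27 at 4 h and from -0.27 to 0.17 at 24 h, which leaves out the rises of MKN1, MKN7 and NCI-N87 at 24 h.

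**Figure D3:**
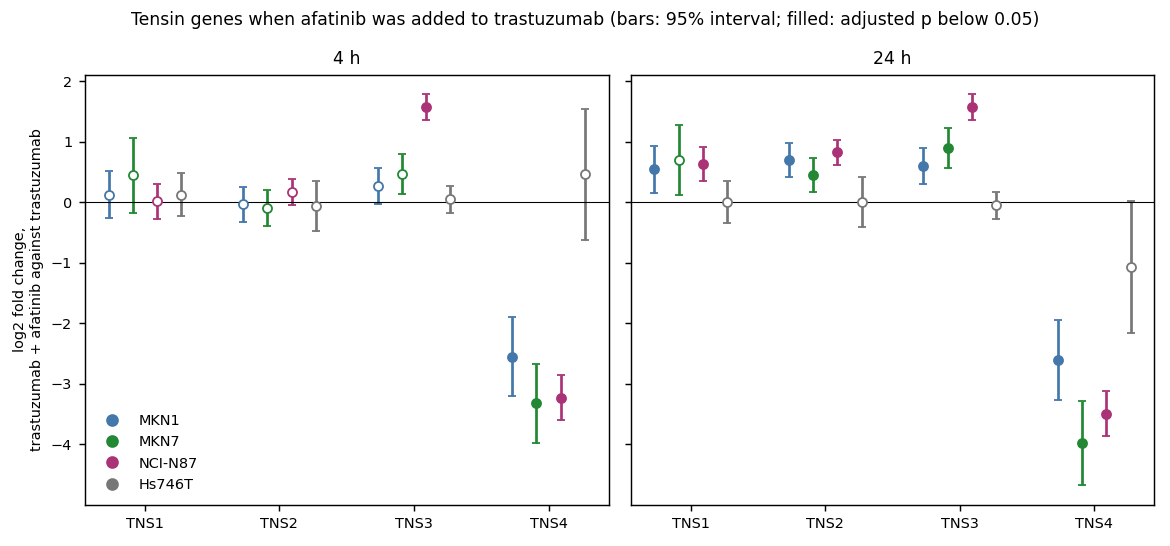
log2FC of trastuzumab + afatinib against trastuzumab for the 4 tensin genes in each cell line at 4 h and 24 h, with bars for the 95% interval and filled points for an edgeR adjusted p below 0.05. TNS4 lies between -2.55 and -3.98 in MKN1, MKN7 and NCI-N87, TNS3 between 0.27 and 1.58, and no point of Hs746T is filled.

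TNS1 and TNS2, the other long members of the family, passed in none of the 8 tests at 4 h, with log2FC from -0.09 to 0.45 in MKN1, MKN7 and NCI-N87, and in 5 of 8 tests at 24 h, all as rises. At 24 h the share of all genes called was 61.7% in NCI-N87, 44.2% in MKN7 and 27.9% in MKN1, and 0% in Hs746T, so calls were common among all genes in the first 3 of these lines. In NCI-N87 at 24 h TNS2 rose from 6.897, 6.866 and 6.802 CPM under trastuzumab to 11.70, 13.17 and 12.22 CPM (log2FC 0.83 ± 0.11, adjusted p = 7.32e-07). TNS1 rose from 20.13, 20.004 and 15.64 CPM to 33.79, 27.96 and 26.11 CPM (0.63 ± 0.14, adjusted p = 0.000634). In both cases every library of the combination lay above every one of trastuzumab.

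In MKN1 at 24 h TNS2 rose from 5.974, 5.333 and 5.213 CPM to 9.305, 8.691 and 9.334 CPM (log2FC 0.70 ± 0.14, adjusted p = 0.000343). TNS1 rose from 54.41, 37.33 and 46.45 CPM to 72.63, 61.60 and 71.06 CPM (0.54 ± 0.20, adjusted p = 0.0366). The groups did not overlap, but the TNS1 call was lost without replicate 1 (adjusted p = 0.0969) and without replicate 3 (adjusted p = 0.293). In MKN7 at 24 h TNS2 was at 3.281, 2.954 and 2.288 CPM against 4.183, 4.321 and 3.272 CPM, which overlapped by 1 library, and rose by the test (0.45 ± 0.14, adjusted p = 0.0139). This call was lost without replicate 1 (adjusted p = 0.0547) and without replicate 2 (adjusted p = 0.148). TNS1 in MKN7 read 4.792, 4.880 and 2.222 CPM against 6.908, 6.950 and 5.675 CPM, with a log2FC of 0.69 ± 0.29 that missed the threshold (adjusted p = 0.0612) and of 0.74 with the replicate block (adjusted p = 0.00074). TNS1 and TNS2 in MKN7 rested on few counts, since their CPM over all libraries were 1.65 to 7.74 and 1.75 to 4.32.

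**Figure D4:**
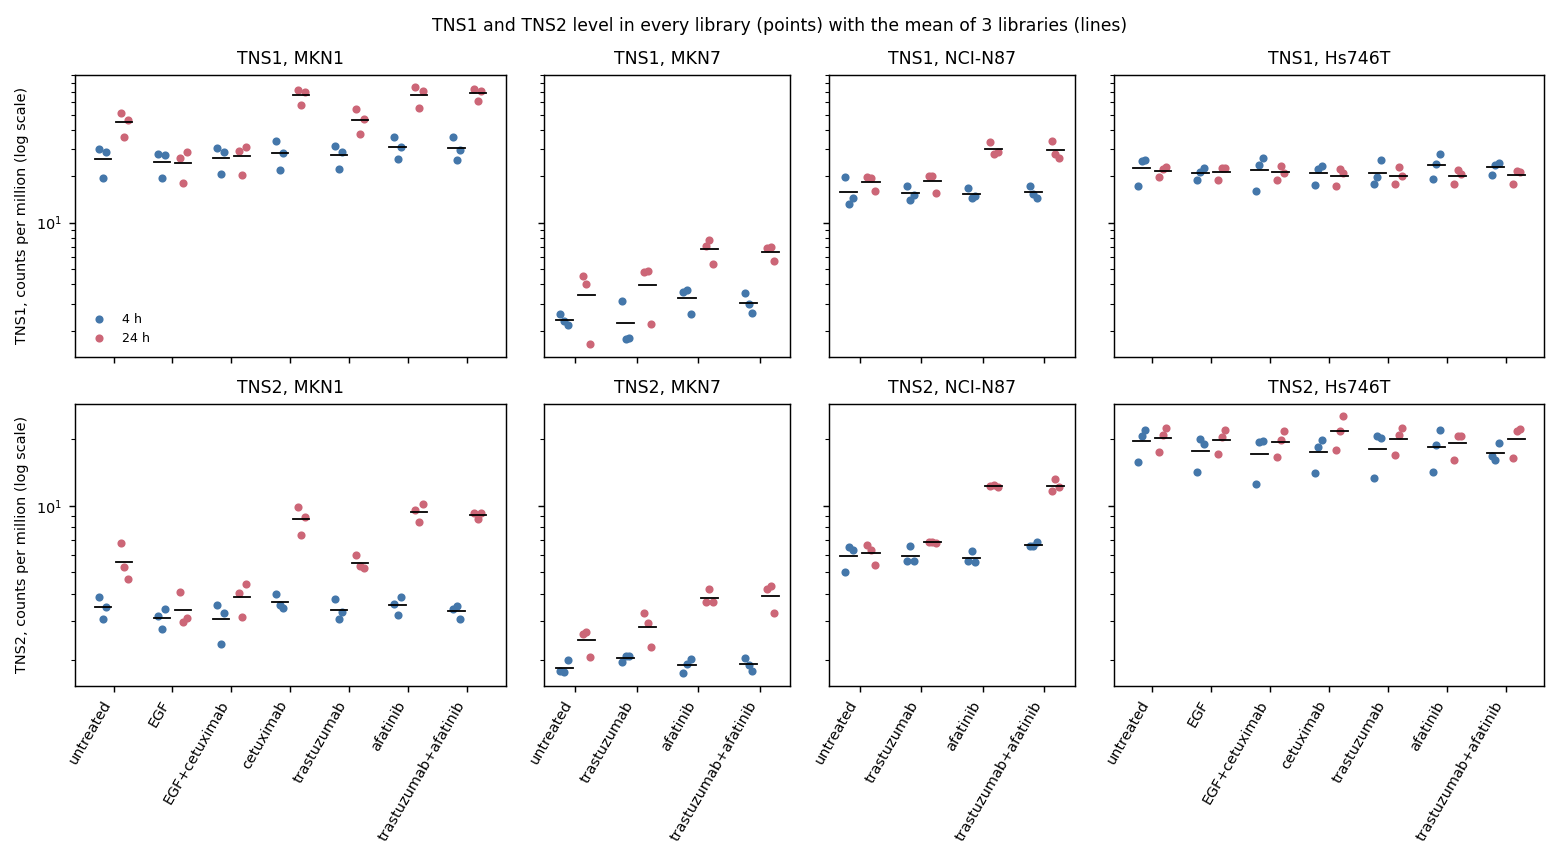
TNS1 and TNS2 level (CPM, log scale) in each library, by cell line, treatment and time, with points for single libraries and lines for the mean of 3. Both genes lie lowest in MKN7, and TNS2 in Hs746T at 12.6 to 25.4 CPM lies above all libraries of MKN7 and MKN1.

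Whether the effect of afatinib added to trastuzumab differed between cell lines was tested for 5 pairs of lines in a joint fit, 20 tensin tests at each time. At 4 h 5 of 20 passed. In Hs746T TNS4 showed no fall at 4 h, with a log2FC of 0.46 ± 0.55 in the fit of that line and overlapping libraries. The log2FC of TNS4 differed from that of Hs746T by -2.99 ± 0.62 log2 units in MKN1 (adjusted p = 0.00304, background 0.399%), by -3.78 ± 0.63 in MKN7 (adjusted p = 8.67e-06, background 4.41%) and by -3.68 ± 0.62 in NCI-N87 (adjusted p = 6.43e-06, background 6.85%). The MKN1 difference was lost without replicate 2 (adjusted p = 0.440), and all 3 rest on Hs746T libraries with few TNS4 counts. The rise of TNS3 was larger in NCI-N87 than in Hs746T by 1.53 ± 0.21 (adjusted p = 3.55e-08) and than in MKN7 by 1.11 ± 0.21 (adjusted p = 0.000527, background 0.95%), the latter with an adjusted p of 0.103 without replicate 2. TNS3 in MKN7 against Hs746T passed only with the replicate block, at 0.43 (adjusted p = 0.000589).

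In both tested pairs of the lines that express TNS4, its fall at 4 h was not shown to differ, and NCI-N87 against MKN1 was not tested. The difference of MKN7 minus MKN1 was -0.78 ± 0.45 (background 1.09%), and that of NCI-N87 minus MKN7 was 0.10 with a 95% interval of -0.78 to 0.97. NCI-N87 and MKN7 thus differed in TNS3 at 4 h, while their TNS4 difference was bounded by this interval.

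At 24 h 8 of 20 differences passed. TNS3 rose more than in Hs746T by 1.65 in NCI-N87 (adjusted p = 2.48e-10, background 34.3%), by 0.96 in MKN7 (adjusted p = 0.000637, background 12.5%) and by 0.68 in MKN1 (adjusted p = 0.0434, background 4.43%). It also rose more in NCI-N87 than in MKN7, by 0.69 ± 0.21 (adjusted p = 0.0109, background 20.3%). TNS4 fell more than in Hs746T by -2.91 ± 0.67 in MKN7 (adjusted p = 0.00123) and by -2.42 ± 0.66 in NCI-N87 (adjusted p = 0.00194), but the MKN1 difference of -1.52 ± 0.65 did not pass, as given above. TNS2 rose more than in Hs746T by 0.85 in NCI-N87 (adjusted p = 0.00127) and by 0.72 in MKN1 (adjusted p = 0.0414).

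Many of these 24 h differences depended on single replicates. Without replicate 2 only 2 of 20 passed, and without replicate 3 only 4. The adjusted p of TNS4 without replicate 2 was 0.0651 in MKN7 and 0.0866 in NCI-N87, and that of TNS3 in NCI-N87 against MKN7 was 0.163. For MKN1 against Hs746T the adjusted p without replicate 2 was 0.278 for TNS2 and 0.290 for TNS3, and without replicate 3 it was 0.529 and 0.501. TNS2 in NCI-N87 against Hs746T had an adjusted p of 0.0578 without replicate 2, and TNS4 in MKN7 against Hs746T one of 0.0585 without replicate 3. The replicate block added TNS1 in MKN7 (0.74, adjusted p = 1.06e-05) and in NCI-N87 (0.65, adjusted p = 3.86e-06) against Hs746T, TNS2 in MKN7 against Hs746T (0.47, adjusted p = 0.00368) and TNS2 in NCI-N87 against MKN7 (0.38, adjusted p = 0.0228). Without the block MKN7 minus MKN1 gave no call at 24 h (background 3.62%), with -1.39 ± 0.47 for TNS4 (adjusted p = 0.0787). With the block TNS3 and TNS4 were called there, and TNS1 in MKN1 against Hs746T. In these the replicate numbers did not pair the MKN1 samples, and the values are given below.

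The effect of afatinib added to trastuzumab was also compared between 24 h and 4 h within each line, where 3 of 16 differences passed, all of them for TNS1 or TNS2. TNS2 rose more at 24 h in NCI-N87 by 0.66 ± 0.15 (adjusted p = 0.00189, background 33.5%) and in MKN1 by 0.73 ± 0.21 (adjusted p = 0.0357, background 4.11%), and TNS1 in NCI-N87 by 0.62 ± 0.20 (adjusted p = 0.0233). Without replicate 2 the adjusted p was 0.0899 for TNS2 and 0.0616 for TNS1 in NCI-N87, without replicate 3 it was 0.124 for TNS1, and for MKN1 TNS2 it was 0.247 without replicate 1 and 0.430 without replicate 3. TNS4 passed in no line, with differences of -0.05 in MKN1 (95% interval -0.93 to 0.82), -0.66 in MKN7 (background 9.32%), -0.27 in NCI-N87 and -1.53 in Hs746T (background 0%). With the replicate block 7 passed, the 4 added ones being TNS1 in MKN1 (0.43, adjusted p = 0.0011), TNS3 in MKN1 (0.35, adjusted p = 0.00396), TNS2 in MKN7 (0.54, adjusted p = 0.0181) and TNS3 in MKN7 (0.45, adjusted p = 0.0217). The replicate numbers did not pair the MKN1 samples at 24 h, on which the added MKN1 differences rest. The share of all genes called with the block is not given here. The fall of TNS4 was thus present by 4 h, whereas the rises of TNS1 and TNS2 were called at 24 h.

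EGF and cetuximab were given to MKN1 and Hs746T. In MKN1, as a description, TNS4 after 4 h of EGF was at 591.4, 503.9 and 543.4 CPM against 211, 224.5 and 292.2 CPM in untreated cells (log2FC 1.18 ± 0.32). After 24 h it was at 466.9, 441 and 529.1 CPM against 46.79, 57.52 and 154 CPM (2.49 ± 0.33, and 3.13 without replicate 3). Every EGF library lay above every untreated one. Under cetuximab alone TNS4 was at 60.85, 64.89 and 61.74 CPM at 4 h (-1.96 ± 0.32) and at 20.99, 18.79 and 26.51 CPM at 24 h (-1.98 ± 0.33, and -1.42 without replicate 3), below every untreated library.

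TNS3 lay on the opposite side in these conditions. After EGF it was at 175, 142.2 and 149.7 CPM at 4 h and at 161.7, 122.8 and 152.8 CPM at 24 h, below every untreated library (log2FC -0.55 ± 0.15 and -1.38 ± 0.16). Under cetuximab for 24 h it was at 703.8, 558.9 and 576 CPM, above the untreated 478.2, 328 and 346.1 CPM (0.66 ± 0.15), while at 4 h the ranges overlapped (0.30). TNS1 and TNS2 followed TNS3 at 24 h, with described log2FC of -0.86 and -0.70 after EGF and of 0.56 and 0.62 after cetuximab. TNS1, for example, was at 26.02, 17.99 and 28.51 CPM after 24 h of EGF, 51.37, 35.92 and 46.17 CPM in untreated cells, and 71.95, 57.68 and 69.91 CPM after cetuximab.

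When cetuximab was added to EGF in MKN1, 0 of 8 tensin tests passed against EGF alone (2 at an unadjusted p of 0.05, 0 by DESeq2), with backgrounds of 0.712% at 4 h and 0.641% at 24 h. These tests share the EGF libraries with the description of EGF above. TNS4 at 24 h was at 276.5, 240.3 and 325.8 CPM with both against 466.9, 441 and 529.1 CPM with EGF, so that all 3 libraries lay lower, with a log2FC of -0.78 ± 0.31 (adjusted p = 0.341). TNS3 at 24 h was at 226.8, 171.7 and 195.1 CPM against 161.7, 122.8 and 152.8 CPM, with all 3 libraries higher and a log2FC of 0.43 ± 0.15 (adjusted p = 0.266). With the replicate block 3 of 8 passed, namely TNS4 at 24 h (-0.80, adjusted p = 0.0436), TNS3 at 24 h (0.43, adjusted p = 1.72e-05) and TNS3 at 4 h (0.31, adjusted p = 0.00151, against 0.31 ± 0.15 and 0.736 without the block). TNS4 at 4 h overlapped, with 544.6, 450.8 and 567.1 CPM against 591.4, 503.9 and 543.4 CPM (-0.07).

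In Hs746T 0 of 8 tests of EGF + cetuximab against EGF passed (1 at an unadjusted p of 0.05, 0 by DESeq2), with 0% of genes called at 4 h and 0% at 24 h. The unadjusted one was TNS4 at 4 h, with 1.18 ± 0.56 and overlapping libraries, of which the 3 with EGF + cetuximab held 2.037, 0.7357 and 0.4767 CPM. The difference between MKN1 and Hs746T in this effect passed for 0 of 8 (2 unadjusted, 0 by DESeq2, backgrounds 0.00876% at 4 h and 0% at 24 h). With the replicate block the TNS3 difference was 0.38 at 4 h (adjusted p = 0.0229) and 0.47 at 24 h (adjusted p = 0.00226).

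Trastuzumab alone changed none of the tensin genes by the test, with 0 of 32 passing against untreated cells (3 at an unadjusted p of 0.05, 0 by DESeq2, lowest adjusted p = 0.989). The background was 0% in each of the 8 comparisons. These tests share the untreated libraries with the comparisons known when the family was chosen. The 3 unadjusted ones were all in NCI-N87. TNS4 there lay above every untreated library at 4 h, with 468.7, 370.2 and 440 CPM against 343.1, 328.1 and 260.9 CPM (log2FC 0.46 ± 0.17). At 24 h it lay below every untreated library, with 268, 265 and 241.7 CPM against 380.1, 382.9 and 362.6 CPM (-0.55 ± 0.17), and TNS3 at 4 h differed by -0.31 ± 0.11.

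Untreated cells themselves moved between 4 h and 24 h, in 5 of 16 tests (8 at an unadjusted p of 0.05). Their libraries also enter the comparisons known when the family was chosen, so these tests are not independent of that choice. In MKN1 all 4 genes passed, with 34.1% of all genes called. TNS4 fell from 211, 224.5 and 292.2 CPM to 46.79, 57.52 and 154 CPM (log2FC -1.52 ± 0.32, adjusted p = 0.000346), by -2.07 without replicate 3 and by -1.34 without replicate 2, when it did not pass (adjusted p = 0.0594). TNS3 rose from 270.5, 203 and 216.1 CPM to 478.2, 328 and 346.1 CPM (0.72 ± 0.15, adjusted p = 0.000444), TNS1 by 0.75 ± 0.20 (adjusted p = 0.00346) and TNS2 by 0.66 ± 0.15 (adjusted p = 0.000652). The TNS1 call was lost without replicate 1 (adjusted p = 0.0587) or replicate 3 (adjusted p = 0.0576). The untreated MKN1 cells thus moved in the same direction as under afatinib, and each treatment is compared with the control of its own time.

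In MKN7 TNS3 rose by 0.70 ± 0.17 (adjusted p = 0.00772, background 16.3%), although the libraries overlapped, with 253.3, 244.7 and 141.6 CPM at 24 h against 117.2, 144.2 and 122.1 CPM at 4 h. The call was lost without replicate 1 (adjusted p = 0.214) or replicate 2 (adjusted p = 0.109). TNS4 in MKN7 differed by -0.75 (adjusted p = 0.0932) with all 24 h libraries lower. No tensin gene passed in NCI-N87 (background 0.278%) or in Hs746T (background 1.48%), where TNS3 differed by 0.25 (adjusted p = 0.433).

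To see how the members moved with each other, the 44 condition means of log2 CPM were centred within cell line and time. The mean subtracted was that of the treatments every line received, namely untreated, trastuzumab, afatinib and trastuzumab + afatinib. Conditions of one line and time share replicate numbers and the centring, so the correlations are a description. They also include the afatinib and untreated conditions known when the family was chosen for TNS3 moving opposite to TNS4. The values therefore do not test that opposition. TNS3 and TNS4 had a Pearson r of -0.914 over the 44 conditions, of -0.919 within MKN1 (n = 14), -0.955 within MKN7 (n = 8), -0.996 within NCI-N87 (n = 8) and 0.254 within Hs746T (n = 14). TNS1 and TNS2 went together with 0.916 over all conditions. TNS1 and TNS2 had 0.851 and 0.865 with TNS3, and -0.853 and -0.781 with TNS4. Within MKN1, MKN7 and NCI-N87 the correlations among TNS1, TNS2 and TNS3 ran from 0.740 to 0.988, and theirs with TNS4 from -0.996 to -0.716. Within Hs746T they were weak, with 0.248 for TNS1 and TNS2 and 0.106 for TNS1 and TNS3.

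**Figure D5:**
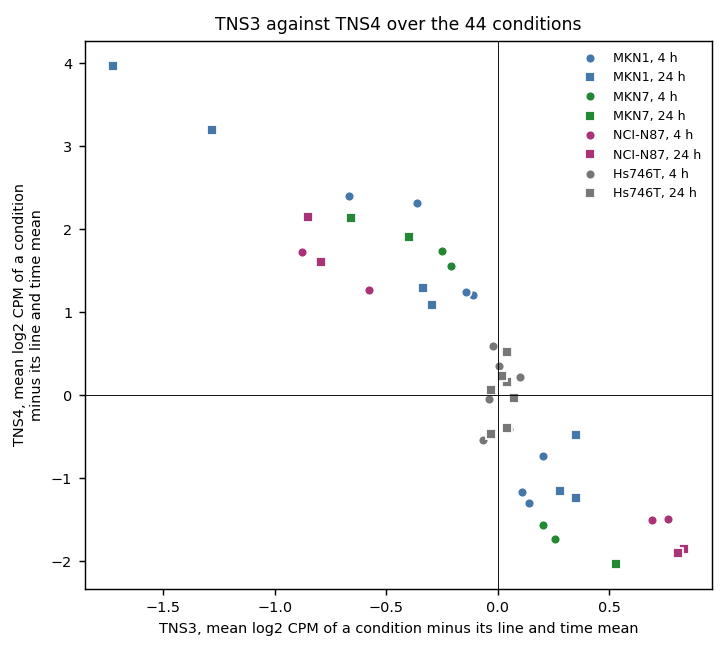
TNS3 against TNS4 for the 44 conditions, each point a condition's mean log2 CPM (n = 3) after centring. The mean subtracted was that of untreated, trastuzumab, afatinib and trastuzumab + afatinib in the same cell line and time. The family was chosen with part of these values known. Points of MKN1, MKN7 and NCI-N87 fall along a descending line (Pearson r -0.914 over all 44), and those of Hs746T stay near 0 on the TNS3 axis.

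Among 9886 genes, those whose pattern over the 44 conditions was most like that of TNS4 were SPRED1 (r 0.979), DUSP7 (0.976), SPRY4 (0.975), JMJD6 (0.974) and SLCO4A1 (0.973). SPRED1 and SPRY4 are feedback inhibitors of RAS to MAPK signalling, and DUSP7 is an ERK phosphatase. The patterns most opposed to TNS4 were those of PHF21A (-0.974), OSER1-DT (-0.971) and TENT5B (-0.967). For TNS3 the genes with patterns much like it included BTN3A1 (0.967), TRANK1 (0.967), BMF (0.966), a pro-apoptotic BH3-only gene, and STK38 (0.966). RPF2, RSL1D1 and PBDC1 were the most opposed, each with -0.972.

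The tensin proteins work with other components of focal adhesions, and a list of 46 focal adhesion genes was followed in the same comparison of trastuzumab + afatinib against trastuzumab. At 4 h 0 of 45 tested genes rose and 3 fell in MKN1, 1 rose and 11 fell of 44 in MKN7, and 1 rose and 10 fell of 44 in NCI-N87. At 24 h 1 rose and 7 fell in MKN1, 5 rose and 13 fell in MKN7, and 5 rose and 23 fell in NCI-N87. The share of the list called in either direction at 24 h was 17.8% in MKN1, 40.9% in MKN7 and 63.6% in NCI-N87, near or below the 27.9%, 44.2% and 61.7% of all genes. At 4 h it was 6.67%, 27.3% and 25.0%, beside 3.08%, 20.5% and 19.6%. Of all genes tested, 14.9% fell and 12.9% rose in MKN1 at 24 h, 21.6% and 22.7% in MKN7, and 30.3% and 31.4% in NCI-N87. At 4 h 2.18% fell and 0.898% rose in MKN1, 10.6% and 9.91% in MKN7, and 10.1% and 9.50% in NCI-N87. The list's median log2FC at 24 h was -0.11 in MKN1, -0.08 in MKN7 and -0.31 in NCI-N87, beside 0.01, 0.04 and 0.04 over all genes tested. None of 44 passed in Hs746T at either time, where 0% of all genes tested were called.

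The focal adhesion genes that moved most differed between lines. PDLIM7, a LIM protein of actin fibres, fell in all 3 lines at 24 h, by -2.02 ± 0.10 in NCI-N87 (55.3 against 221 CPM, adjusted p = 5.11e-13), -0.62 in MKN7 and -0.48 in MKN1. ACTN1, which crosslinks actin at adhesions, fell by -0.72 ± 0.16 in MKN1 (139 against 225 CPM, adjusted p = 0.000862) and by -0.66 in MKN7. In NCI-N87 PARVB (parvin beta) fell by -1.94 ± 0.13 and FLNA (filamin A) by -1.42 ± 0.13, and in MKN7 FERMT1 (kindlin-1, an integrin activator) fell by -1.40 ± 0.30. Rises were found for KANK1 in MKN1 (0.73 ± 0.18), for LIMS2 (0.97 ± 0.26) and KANK2 (0.65 ± 0.11) in MKN7, and for LPP (0.47), ARHGEF7 (0.33) and SRC (0.29) in NCI-N87. When cetuximab was added to EGF in MKN1, 2 of 45 tested focal adhesion genes fell at 4 h, FERMT1 (-0.83) and VASP (-0.32). At 24 h 1 of 45 fell, FERMT1 (-0.83). Of all genes tested, 0.631% fell at 4 h and 0.429% at 24 h.

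Of 8 genes whose proteins bind or act with tensins, 4 fell in NCI-N87 at 24 h. EGFR fell by -1.05, MET, the hepatocyte growth factor receptor, by -1.03, ITGB1 (integrin beta 1) by -0.95 and PTK2 (focal adhesion kinase) by -0.18. In MKN7 at 24 h 4 fell, EGFR (-0.64), BCAR1 (-0.38), CBL (-0.36) and ITGB1 (-0.33). In MKN1 at 24 h PTK2 fell by -0.22 (adjusted p = 0.0172). At 4 h BCAR1, an adaptor protein of adhesions, fell in each of the 3 lines, by -0.43 in MKN1, -0.47 in MKN7 and -0.87 in NCI-N87. EGFR fell at 4 h in MKN7 (-0.45) and NCI-N87 (-0.73), DLC1 in MKN7 (-0.69) and MET in NCI-N87 (-0.45). In either direction, 62.5% of this list was called in NCI-N87, 50% in MKN7 and 25.0% in MKN1 at 24 h, near the 61.7%, 44.2% and 27.9% of all genes. At 4 h the shares were 37.5%, 37.5% and 12.5%, beside 19.6%, 20.5% and 3.08% of all genes. Of all genes tested, 30.3% fell in NCI-N87 at 24 h, 21.6% in MKN7 and 14.9% in MKN1. At 4 h 10.1%, 10.6% and 2.18% fell. The medians at 24 h were -0.07 in MKN1, -0.27 in MKN7 and -0.56 in NCI-N87. None of the 8 passed in Hs746T, where 0% of all genes were called, or for EGF + cetuximab against EGF. In that comparison 0.712% of all genes were called in MKN1 at 4 h and 0.641% at 24 h, and 0% in Hs746T.

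A list of 10 MAPK output genes stands for the pathway downstream of the EGF receptor. In trastuzumab + afatinib against trastuzumab 8 of 9 tested genes fell in MKN1 at both times, 8 of 9 in MKN7 at both times, and 9 of 9 in NCI-N87 at 4 h and 8 of 9 at 24 h. Of all genes tested, 2.18% fell in MKN1, 10.6% in MKN7 and 10.1% in NCI-N87 at 4 h, and 14.9%, 21.6% and 30.3% at 24 h. The medians were -1.69, -1.98 and -2.23 at 4 h and -2.05, -1.94 and -2.67 at 24 h. In Hs746T 0 of 10 passed at either time, where 0% of all genes were called. SPRY4 fell by -4.17 in MKN1, -4.84 in MKN7 and -5.42 in NCI-N87 at 24 h, and DUSP6 by -3.76, -3.33 and -5.04. EPHA4 was the exception, rising at 24 h in MKN7 (0.82) and NCI-N87 (0.86) but falling in NCI-N87 at 4 h (-0.53). When cetuximab was added to EGF in MKN1, 1 of 9 fell at 4 h and none passed at 24 h, while 0.631% and 0.429% of all genes tested fell.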

How the data were processed

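RNA was taken from 4 gastric cancer cell lines in 44 conditions with 3 replicate libraries each, enriched for polyadenylated RNA and sequenced as paired ends with a directional kit. The authors deposited raw counts per Ensembl identifier and library, 65217 identifiers each. The submitters' processing notes name Trim Galore, STAR and hg38, without versions, and the counting tool, annotation and strand setting are not given in the sources used here. GENCODE 29 named 56813 identifiers, and the other 8404 held 0.0422% of the counts. The library totals of 25832557 to 69434151 set the counting error, and floors cover counting error only.

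Counts were fitted per cell line with edgeR 4.0.16 (R 4.3.3, quasi-likelihood, robust, TMM scaling, filterByExpr with a minimum count of 10 and total of 15), with 1 mean per treatment and time and p-values adjusted by Benjamini-Hochberg over all genes tested, 18483 to 19815 per line. A gene was called at an adjusted p below 0.05. Differences between lines came from 1 fit of all libraries (22832 genes). Alternatives were DESeq2 1.42.0, library size scaling, other filters, only the compared groups, a replicate block and leaving out each replicate number. Scripts were tested on simulated data. No pair of replicates was identical (0 pairs).

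The members and lists were chosen with earlier results of these data known. The named genes are the 4 tensins and, per list and line at 24 h, at most 3 called rises and 3 called falls of largest size, and other list genes named were chosen after their values were seen. Values of 2 genes that this rule and the likeness measure would name are not reported here. Replicate numbers paired the samples in 22 of 24 comparisons, where every same-numbered pair of deviations correlated above 0.1 (0.101 to 0.623). The pairing comes from these correlations and not from the labels, and the exceptions were trastuzumab + afatinib against trastuzumab in MKN1 at 24 h (lowest -0.0161) and the untreated time points in Hs746T (lowest 0.0829). The labels number the samples in 2 series of 65 and 67 libraries. Treatments of the same line, time and replicate number fall in the same series. Replicate 2 of MKN1, and of Hs746T at 4 h, falls in another series than that of MKN7, of NCI-N87 and of Hs746T at 24 h. Comparisons of MKN7 with MKN1, and of time points in Hs746T, therefore cross the series. So do those of Hs746T with MKN1 at 24 h and with MKN7 and NCI-N87 at 4 h. The other tested pairs of lines do not. The figures were drawn with matplotlib 3.10.9.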

Additional observations from a re-analysis of the deposited data

Results flagged for a closer look

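The effect of afatinib added to trastuzumab differed between cell lines by the interaction test in 13 cases. At 4 h TNS4 differed from Hs746T by -2.99 log2 units in MKN1, -3.78 in MKN7 and -3.68 in NCI-N87, and TNS3 in NCI-N87 differed by 1.53 from Hs746T and by 1.11 from MKN7. At 24 h TNS4 differed from Hs746T by -2.91 in MKN7 and -2.42 in NCI-N87, and TNS2 by 0.72 in MKN1 and 0.85 in NCI-N87. TNS3 at 24 h differed from Hs746T by 0.68 in MKN1, 0.96 in MKN7 and 1.65 in NCI-N87, and in NCI-N87 from MKN7 by 0.69. The effect also differed between 24 h and 4 h for TNS2 in MKN1 (0.73) and for TNS1 (0.62) and TNS2 (0.66) in NCI-N87.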

How the results depend on the processing

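Of 36 called log2FC, 31 of 276 alternatives lost the call and 0 turned the direction. Leaving out replicate 2 lost 13 calls, replicate 3 lost 9 and replicate 1 lost 5. With 1 replicate number left out at a time, TNS3 under added afatinib ran from 0.53 to 0.72 in MKN1 at 24 h and from 0.41 to 0.51 in MKN7 at 4 h. Over the same fits the number of calls ran from 3 to 4 for TNS1 and TNS2 at 24 h, from 3 to 6 for untreated cells over time, from 3 to 5 (4 h) and 2 to 9 (24 h) for line differences, from 1 to 2 for time differences, and in MKN1 at 24 h from 3 to 9 for focal adhesion genes and from 0 to 2 for tensin partners. The share of all genes called in these fits is not given here. TNS3 in MKN7 at 4 h passed with 0.46 in only the compared groups, 0.46 by DESeq2, 0.55 with library size scaling, 0.48 with at least 10 counts in every library and 0.47 with the replicate block.

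With the replicate block TNS3 in MKN1 at 4 h was 0.27, and for EGF + cetuximab against EGF in MKN1 TNS3 was 0.31 at 4 h and 0.43 at 24 h and TNS4 -0.80 at 24 h. The block gave 3 calls for EGF + cetuximab against EGF in MKN1 and 2 for its difference from Hs746T, 15 line differences at 24 h and 7 time differences, 23 focal adhesion genes in MKN1 and 31 in MKN7 at 24 h, and 8 tensin partners in NCI-N87 at 24 h. The share of all genes called with the block is not given here, so the list counts show nothing particular to these lists. Where the numbers did not pair the samples, the block called TNS3 (0.29) and TNS4 (-1.51) in MKN7 minus MKN1 and TNS1 (0.58) in MKN1 minus Hs746T at 24 h, and TNS3 between the untreated time points of Hs746T (0.25, adjusted p = 0.0243). There it also called the time differences of TNS1 and TNS3 in MKN1 given above. The 23 focal adhesion calls in MKN1 at 24 h rest on such samples too. A block within each time point cannot estimate a difference between time points, so a block shared by both was used there and was chosen after seeing the data. The block changed no other call of the tensin genes beyond those given above.

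Without a filter 3 of 8 TNS1 and TNS2 tests passed at 24 h. Tensin partners in MKN1 at 24 h had 1 call in only the compared groups, with library size scaling and without a filter. Library size scaling moved the median log2FC of all genes by up to 0.28 (NCI-N87, added afatinib, 24 h) and down to -0.20 (MKN1, EGF, 24 h), turned no tensin direction, and moved the described afatinib values of NCI-N87 at 24 h to 1.91 for TNS3 and -3.75 for TNS4. The causes of these changes were not tested. TNS4 in Hs746T had 13 to 104 counts per library.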
